A study of Mus musculus with 30 samples.

Results

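Circulating leukocytes of untreated mice were set against bone marrow cells, the tissue in which they are made. The comparison used the 4 untreated blood samples among the 15 blood samples of the series, which are 8 of its 30 array columns because each sample has 2 technical replicates. These were chosen by their labels alone, and each value is a log2 ratio of blood over marrow that was tested against 0. All mice were of the inbred strain DBA/2. The blood came from mice given no treatment. The marrow channel of every array is labelled as 1 pool of untreated marrow cells, but a treatment entry for the same channel names cyclophosphamide at 83 mg per kg, and the labels do not settle which holds. The other blood samples were taken at day 1 (4 samples), day 2 (4 samples) and day 5 (3 samples) after cyclophosphamide at 83 mg per kg, an alkylating drug toxic to dividing cells. They appear here only beside the untreated values. The age and number of mice behind a sample or behind the pool are not given in the labels. Blood was labelled with Cy5 and marrow with Cy3 throughout, and a bias of the dyes cannot be told apart from a difference between the tissues.

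Bone marrow holds dividing precursors of red cells, granulocytes, monocytes, platelets and B cells together with their maturing offspring, a large store of neutrophils, and the stromal cells that support them. Most cells leave for the blood after their last division, while T cells are exported by the thymus and platelets are shed by megakaryocytes. Granule proteins of neutrophils are transcribed in waves during their maturation in the marrow, first those of the primary granules, then those of the secondary and tertiary granules, and these messages decline before the cells circulate.

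The untreated columns held values for 7134 to 8424 of 13443 probes. The sources used here give no reason for the empty entries, so counts below cover only genes with values. Probes of 1 gene were averaged, and 7473 features (genes, or probes with no single gene name) had values in at least 3 of the 4 samples. Of these, 6257 had values in all 4. Relaxing the minimum to 2 samples would have admitted 8495. Technical replicates correlated across probes with r between 0.835 and 0.950, and columns of different untreated samples with a median r of 0.740. Ratios were spread least in replicate 2, with an SD over features of 0.40, against 0.49 in replicate 1, 0.60 in replicate 3 and 0.59 in replicate 4. Column medians lay near 0, so a ratio shows how a transcript stood relative to the other transcripts of that array, not its absolute amount. In these bulk samples fewer cells of a type and less RNA per cell cannot be told apart.

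One technical pattern touches genes of interest. In each untreated column between 17 and 60 probes had a log ratio within 0.01 of that of the probe for Hba-a1, an alpha globin chain of haemoglobin, and 20 probes did so in at least 4 of the 8 columns, at shared values between -1.08 and -0.59. These probes belonged to unrelated genes, among them Ppia, Ptma, Tpt1, Rps13 and Rps23. The cause was not tested, and the ratios of these probes are not read as measurements of their genes.

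Blood and marrow differed broadly. By limma's moderated test against 0 with Benjamini-Hochberg adjustment over all tested features, 2198 of 7473 (29.4%) were called at an adjusted p under 0.05, with 1050 higher in blood (14.1%) and 1148 lower (15.4%). This split depends on where 0 is set: with centring on the housekeeping list 2187 features were called higher and 650 lower. Many of these differences were small, since 49.0% of called features had a mean below 0.5 in size. A stricter test, which asks whether the mean lies beyond 2-fold, called 70 features (0.937%), with 34 higher (0.455%) and 36 lower (0.482%). With a robust trended prior this test called 20. With 1 sample fewer the counts dropped most without replicate 3 (1170 called, 45 of the features beyond 2-fold) and without replicate 1 (1295 called, 39 beyond 2-fold). The test rests on 1 marrow pool and therefore leaves out the spread between marrow samples. The 4 blood samples are described as biological replicates harvested independently.

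The 15 highest named genes held 5 members of the platelet list, and the 15 lowest held 4 of the cell division list and 2 of the neutrophil precursor list. Clu, which encodes the secreted chaperone clusterin stored in platelet granules, had log2 ratios of 3.37, 3.27, 3.69 and 2.94 in untreated replicates 1 to 4, the highest mean of any named gene (3.31 ± 0.31, SD, n = 4, limma adjusted p = 4.07e-05), or 9.95-fold more in blood. Gimap4 and Gimap3, GTPases that act in lymphocyte survival, had means of 2.84 ± 0.27 and 2.74 ± 0.44. Ms4a4c and Ms4a6b, membrane proteins of the CD20-like family, had means of 2.43 ± 0.38 and 2.26 ± 0.16. All 4 samples lay well above 0 for each of these genes.

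Histones H2bc4 and H1f2 were among the highest genes. H2bc4, a core histone of the H2B type, had values of 2.97, 3.07, 3.74 and 2.21, and H1f2, a linker histone, had values of 2.35, 2.26, 2.71 and 2.49. The histone chaperone Asf1b, which deposits new histones behind the replication fork, had the opposite sign with values of -2.50, -1.90, -3.01 and -3.13. Ddit4, a stress-induced inhibitor of growth signalling, had a mean of 2.33 ± 0.28, and Zc3hav1, an antiviral RNA-binding protein, 2.21 ± 0.15.

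The lowest mean was that of Cdk1, the kinase that drives entry into mitosis, with values of -3.25, -2.41, -4.09 and -4.11. Its mean of -3.47 ± 0.81 (limma adjusted p = 0.000487) corresponds to 11.1-fold less in blood. Depdc1a and Cenpk, which act in mitosis and at the centromere, had means of -3.35 ± 0.88 and -2.98 ± 0.92, and Btnl10, a butyrophilin-like membrane protein, -3.18 ± 0.57. Of the 15 highest and the 15 lowest genes, 14 in each set were also called beyond 2-fold, the exceptions being Ccl2 and Tyms. With a robust trended prior 12 of the highest and 5 of the lowest were, without replicate 1 12 and 7, without replicate 3 14 and 8, and without replicate 4 14 and 10. Replicate 2 had the value nearest 0 for 10 of the 15 highest and for 13 of the 15 lowest.

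**Figure D1:**
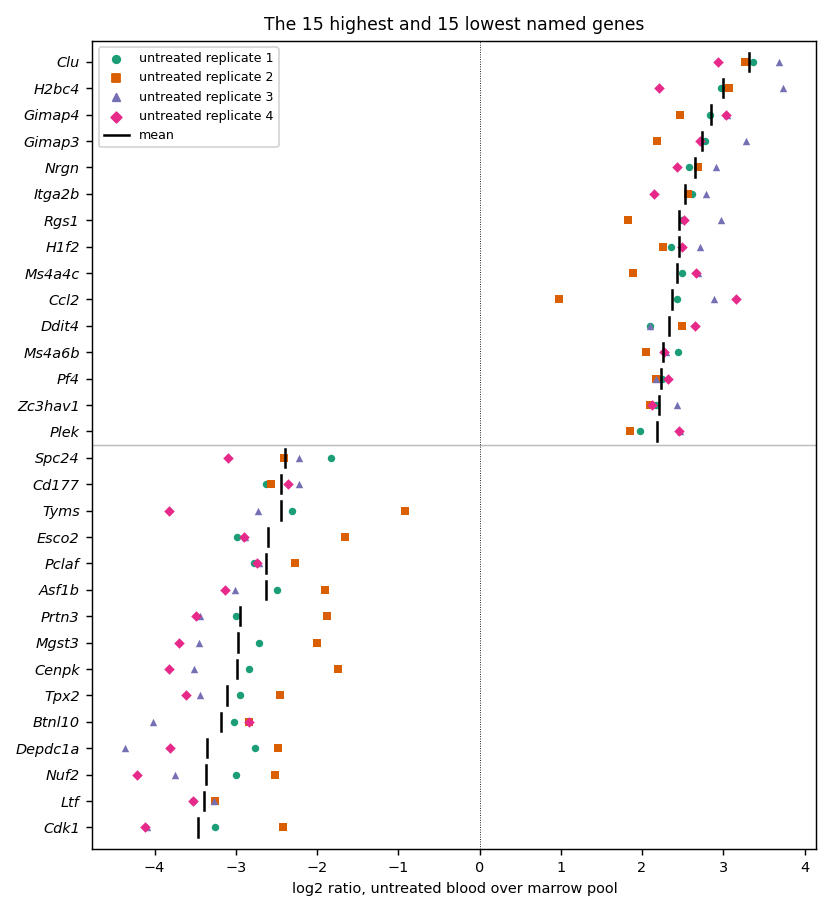
Log2 ratio of untreated blood over the marrow pool (horizontal axis) for the 15 named genes with the highest and the 15 with the lowest means, with 1 symbol per untreated sample and a bar at the mean of 4. No gene has samples on both sides of 0, and replicate 2 is nearest to 0 for 13 of the 15 lowest genes.

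Among the gene lists examined, platelet, immediate early, monocyte, T cell and interferon-stimulated genes had the highest medians, and cell division, erythroid, mature neutrophil, DNA replication and neutrophil precursor genes the lowest. The median of all tested features was -0.02.

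**Figure D2:**
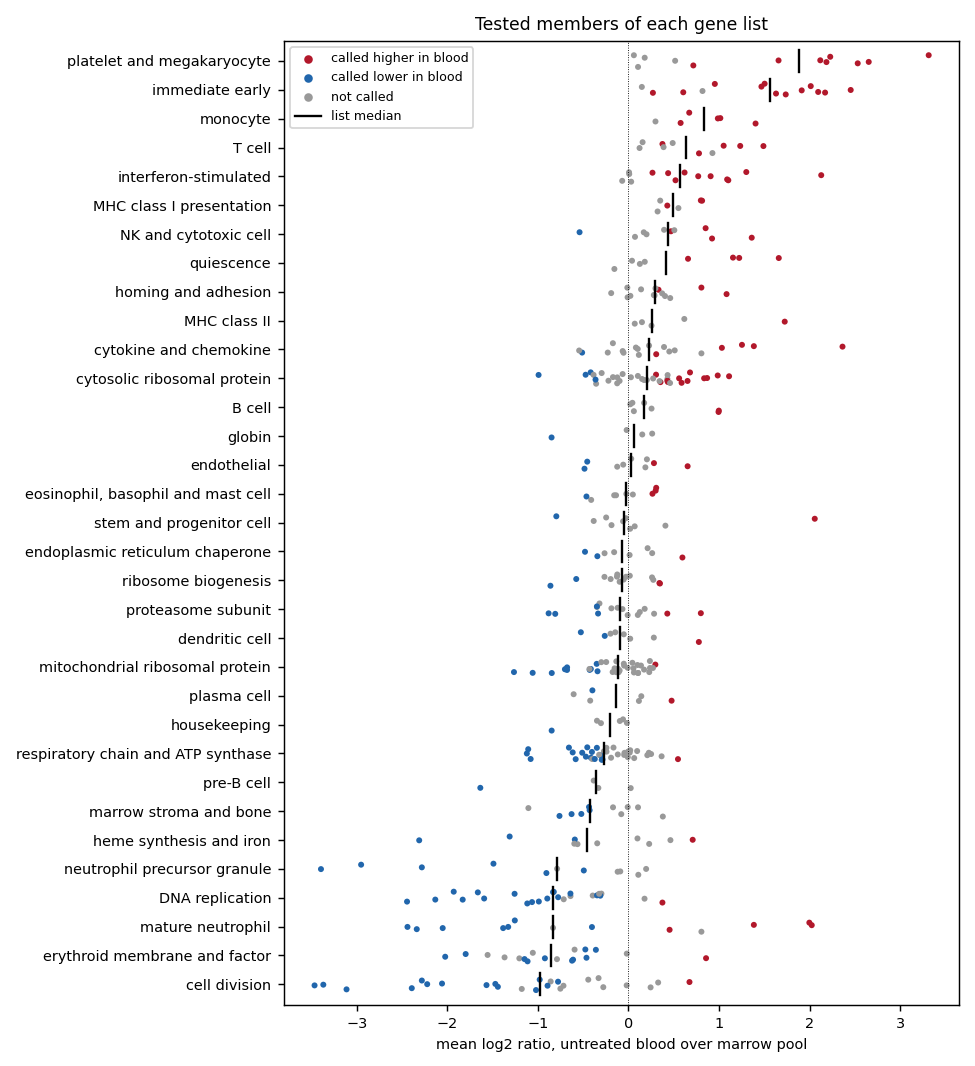
Mean log2 ratio of untreated blood over the marrow pool for every tested member of each of 33 gene lists, ordered by list median (black bar). Points are coloured by the call at an adjusted p under 0.05. The platelet list has its median at 1.89 and the cell division list at -0.98.

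T cell genes were higher in blood. Of 26 T cell genes on the array 10 were tested, and 5 were called higher and 0 lower, beside 14.1% and 15.4% of all features. The list median was 0.63. Cd8b1, a chain of the CD8 co-receptor of cytotoxic T cells, had values of 0.49, 1.04, 2.03 and 2.41, and the costimulatory receptor Cd28 had 1.19, 0.36, 1.89 and 1.49. Their means were 1.49 ± 0.88 and 1.23 ± 0.65 (SD, n = 4). Cd4, the co-receptor of helper T cells, differed less, with values of 0.29, 0.28, 0.43 and 0.50. The transcription factors Ets1 and Satb1, both required in T cell development, had means of 0.78 and 1.05, the second over 3 samples. The calls depended on single samples, with 3 T cell genes called without replicate 3 and 3 without replicate 4. Cd8b1 (1.31), and Cd4 (0.36), lost their calls without replicate 3, as did Cd4 (0.33) and Satb1 (0.73) without replicate 4 and Satb1 (1.01) without replicate 2. The defining genes Cd3d and Cd3e had no value in any untreated sample. Cd8a, the other chain of CD8, had too few values to be tested. Its values were below 0, at -0.39 in replicate 1 and -0.29 in replicate 3. The other T cell genes with too few values lay on both sides of 0.

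Natural killer (NK) cell genes mostly stood on the same side. Klrd1 (CD94), an inhibitory receptor subunit, had values of 1.31, 1.20, 1.52 and 1.42, a mean of 1.36 ± 0.14 (limma adjusted p = 0.000186). Nkg7, a protein of cytotoxic granules, had values of 0.73, 1.02, 0.93 and 1.01. Both genes were above 0 in all 4 samples by more than their spread. Ncr1, the activating receptor NKp46, ranged from 0.20 to 1.81, and its call was lost without replicate 2 (0.92) or replicate 3 (0.88). Of 10 tested NK and cytotoxic genes 4 were called higher and 1 lower, beside 14.1% and 15.4% of all features. The 5 not called had means between 0.07 and 0.51. The 1 called lower was Cst7, an inhibitor of granule proteases, with a mean of -0.54. Without replicate 3 only 2 were called higher and 0 lower, with Cst7 at -0.42, and without replicate 1 Cst7 stood at -0.52 with no call. Eomes, a transcription factor of NK and memory T cells, had a mean of 0.47 and was not called without replicate 1 (0.47) or replicate 3 (0.39).

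B cell genes differed little, and 1 precursor B cell gene was called lower. Of 7 tested B cell genes 2 were called, both higher, or 28.6% called against 29.4% of all features. Fcmr, the receptor for immunoglobulin M, had values of 0.84, 0.78, 1.25 and 1.11, and Cd22, an inhibitory co-receptor of the B cell receptor, had 0.94, 0.44, 1.29 and 1.31. The values of Ms4a1 (CD20) lay on both sides of 0, at -0.10, -0.12, 0.53 and 0.38. Of 4 tested precursor B cell genes 1 was called (25%), and it was lower in blood. This gene, Vpreb3, which associates with the receptor of precursor B cells, had values of -1.79, -1.54, -1.46 and -1.75. Its mean was -1.64 ± 0.16 (limma adjusted p = 0.000113). Vpreb1, a surrogate light chain of the same cells, had a mean of 0.02 ± 0.32 and was not called. H2-Aa, an MHC class II chain that presents antigen to helper T cells, had values of 2.08, 1.69, 1.46 and 1.67. It was the only 1 of 5 tested class II genes to be called, or 20% against 29.4% of all features. That count depends on the settings. With a minimum of 2 values 4 of 8 class II genes were called higher, with a median of 0.70. With all 15 blood samples in the fit 3 of 5 were called higher.

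Monocyte genes were called higher in blood in 5 of 6 tested cases, beside 14.1% of all features. Ms4a6c, a membrane protein of monocytes, had values of 1.55, 1.13, 1.56 and 1.37 (limma adjusted p = 0.000286). Adgre1, a surface antigen of macrophages and monocytes, had values of 1.10, 0.46, 1.27 and 1.23, and Mpeg1, a pore-forming protein of phagocytes, 1.14, 0.54, 1.05 and 1.21. Replicate 2 was lowest for all of these. F13a1, a subunit of clotting factor XIII that monocytes and platelets both carry, had a mean of 0.58 ± 0.29. Lyz2, the lysozyme of myeloid cells, had values of 0.19, 0.90 and 0.93 in replicates 2 to 4. It lost its call without replicate 3 (0.56) or replicate 4 (0.54). Its call was also lost without replicate 1, where Lyz2 had no value and its mean stayed at 0.67. Cx3cr1, a receptor of patrolling monocytes, had a mean of 0.30 ± 0.36 and was not called.

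The monocyte chemoattractant Ccl2 had values of 2.43, 0.98, 2.89 and 3.15 (limma adjusted p = 0.0037), with replicate 2 apart from the others. Ccl6 and Ccl9, chemokines made by myeloid cells, had means of 1.25 ± 0.59 and 1.03 ± 0.46. Of 19 tested cytokine and chemokine genes 5 were called higher and 1 lower, the last being Il16 with a mean of -0.51 ± 0.18. That is 31.6% called, close to the 29.4% of all features. Of 14 tested homing and adhesion genes 3 were called higher and 0 lower, a share of 21.4%. Without any 1 replicate 2 or 3 were called higher. Itgb1, a shared beta chain of integrins, had the highest mean of this list at 1.08 ± 0.19. Cxcr4, which retains leukocytes in the marrow through its ligand, had values of 0.69, 0.32, 0.99 and 1.22, and its 2 probes gave means of 0.49 and 1.12.

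Platelet genes formed the list with the highest median, 1.89. With a minimum of 2 values per gene the platelet median was 0.72, below the 1.50 of immediate early genes. Of 26 on the array 12 were tested, and 8 were called higher and 0 lower, beside 14.1% and 15.4% of all features. These counts stayed at 8 and 0 whichever replicate was left out. Itga2b, the alpha chain of the platelet fibrinogen receptor, had values of 2.62, 2.57, 2.79 and 2.15, a mean of 2.53 ± 0.27 (limma adjusted p = 6.72e-05). Pf4, a chemokine of platelet alpha granules, was nearly the same in every sample, at 2.25, 2.17, 2.17 and 2.32. Ppbp, a second alpha granule chemokine, had 2.70, 2.80, 1.07 and 1.90 and varied more. Treml1, a receptor held in platelet granules, had values of 1.09, 1.83, 1.66 and 2.06. Nrgn, a calmodulin-binding protein abundant in platelets, and Plek, a platelet substrate of protein kinase C, had means of 2.65 ± 0.20 and 2.19 ± 0.32. The 4 genes that were not called were F2rl3, Tbxa2r, Tbxas1 and Clec1b, named here because they are so few, with means between 0.06 and 0.52. Gp1bb had no value in the untreated samples and Gp9 had 1. The labels call the samples leukocytes, and how far platelet RNA in them contributed to other genes was not tested.

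Genes of mature neutrophils split in direction. Of 13 tested members 7 were called lower and 4 higher, beside 15.4% and 14.1% of all features. Their median was -0.83. Cd177, a surface glycoprotein of neutrophils, had values of -2.63, -2.56, -2.22 and -2.35 (limma adjusted p = 4.07e-05), or 5.43-fold less in blood. Chil1, a chitinase-like protein of specific granules, had values of -2.16, -1.76, -2.09 and -2.20. S100a9, a chain of calprotectin and among the most abundant cytosolic proteins of neutrophils, had -3.12, -1.70, -2.95 and -1.58. Receptors were on both sides, with Fpr2 (-1.33) and Trem3 (-0.40 over 3 samples) also called lower. Those called higher were other receptors and an inflammatory cytokine. Trem1, an activating receptor, had values of 1.96, 1.59, 2.43 and 2.02 (limma adjusted p = 0.000271). Clec4e (Mincle), a receptor for microbial glycolipids, had 0.90, 1.99, 2.60 and 2.60. Il1b had 0.84, 1.67, 1.32 and 1.71 as the average of 2 probes, of which 1 had a mean of 2.27 and the other, not called, of 0.50. Csf3r, the receptor for granulocyte colony-stimulating factor, had 0.22, 0.23, 0.74 and 0.62, and its call was lost without replicate 3 (0.36) or replicate 4 (0.40). Clec4e and Il1b are also expressed by monocytes. S100a8 had no value in any untreated sample.

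Granule genes of neutrophil precursors were lower or not called. Of 16 on the array 11 were tested, and 6 were called lower and 0 higher, beside 15.4% and 14.1% of all features. Their median was -0.79. Ltf, the iron-binding lactoferrin of secondary granules, was close to the same in all samples at -3.53, -3.25, -3.27 and -3.53 (mean -3.40 ± 0.15, limma adjusted p = 2.21e-05), or 10.5-fold less in blood. Ngp, another secondary granule protein, had values of -2.25, -2.91, -1.52 and -2.45. Among primary granule proteases, Prtn3 had values of -2.99, -1.88, -3.45 and -3.49, and Ctsg (cathepsin G) -0.89, -1.25, -1.79 and -2.03. Itgb2l, an integrin beta chain of late precursors, had a mean of -0.91 over 3 samples and was not called without replicate 1 (-0.79) or replicate 3 (-0.67). The primary granule genes Mpo and Elane could not be tested, with 0 and 2 values.

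**Figure D3:**
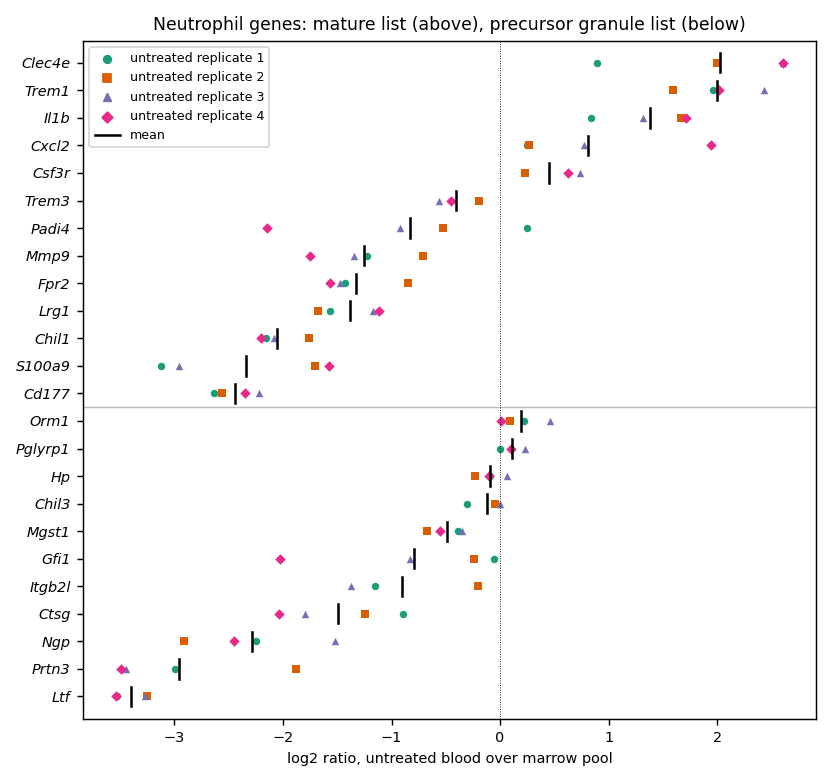
Log2 ratio of untreated blood over the marrow pool for the 13 tested mature neutrophil genes (above the line) and the 11 tested precursor granule genes (below), with 1 symbol per untreated sample and a bar at the mean. Trem1 and Clec4e lie above 0 in all 4 samples and Cd177, S100a9 and Ltf below 0 in all 4.

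Red cell precursor genes were lower in blood. Of 18 tested erythroid membrane and factor genes 10 were called lower and 1 higher, beside 15.4% and 14.1% of all features. Their median was -0.86. Without replicate 1 the count called lower was 6. Kel, a blood group antigen and membrane peptidase, had values of -1.52, -1.74, -2.54 and -2.29 (limma adjusted p = 0.000624). Rhd, an Rh blood group antigen, had -1.12, -1.54, -2.22 and -2.31 as the average of 2 probes, at -3.07 and, without a call, -0.52. Tspo2, an erythroid membrane transporter, and Ctse, cathepsin E, had means of -1.11 ± 0.30 and -0.92 ± 0.43. Ermap, an erythroblast membrane protein, had a mean of -1.15 and was not called without replicate 1 (-1.16) or replicate 3 (-1.14). Gata1, the transcription factor of red cell and megakaryocyte precursors, had a mean of -0.46 ± 0.25 and was not called without replicate 1 (-0.45), 3 (-0.45) or 4 (-0.38), nor with centring on the housekeeping list (-0.29).

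Not all red cell genes had that sign. Bnip3l, which directs the removal of mitochondria from maturing red cells, had values of 0.62, 0.65, 1.06 and 1.10. Within heme synthesis, Ppox, the enzyme of the penultimate step, was lower in every sample at -2.25, -2.16, -2.42 and -2.40 (limma adjusted p = 4.07e-05). Alas2, the first and rate-limiting erythroid enzyme, lay on both sides of 0 at -0.47, -0.30, 0.39 and 0.77 and was not called. Tmem14c, a porphyrin transporter of mitochondria, had a mean of -1.31 ± 0.14, and Ftl1, the light chain of the iron store ferritin, was higher with a mean of 0.71 ± 0.28. Klf1, a master regulator of red cell genes, had values of 0.00, 0.25 and -4.35 in replicates 1, 2 and 4, so its mean rests on replicate 4. The adult globin Hba-a1 was at the ratio shared by unrelated probes and is not read, and the embryonic globins Hba-x, Hbb-bh1 and Hbb-y, named here because they are the rest of the list, had means between -0.02 and 0.26 with no call.

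Cell division genes had the lowest list median, -0.98. Of 45 on the array 25 were tested, and 14 were called lower and 1 higher, beside 15.4% and 14.1% of all features. Nuf2 and Spc24 are subunits of the kinetochore complex that holds chromosomes to the spindle. Nuf2 ranged from -4.22 in replicate 4 to -2.52 in replicate 2 (limma adjusted p = 0.000434), and Spc24 had values of -1.83, -2.41, -2.23 and -3.10. Tpx2, which nucleates spindle microtubules, had -2.95, -2.45, -3.44 and -3.61, and Nusap1, a spindle-binding protein, -2.82, -2.11, -2.35 and -1.85. All 4 samples were well below 0 for these 4 genes. Cdca5 (sororin), which protects cohesion between sister chromatids, had the opposite sign at 0.72, 0.39, 0.80 and 0.79 (limma adjusted p = 0.0038). Esco2, which acetylates cohesin so that cohesion is set up, had -2.99, -1.66, -2.88 and -2.90. Without any 1 replicate between 13 and 15 division genes were called lower.

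DNA replication genes had a median of -0.83. Among 24 tested genes 17 were called lower and 1 higher, beside 15.4% and 14.1% of all features. Tyms, which makes thymidylate, had values of -2.31, -0.92, -2.73 and -3.82, and Rrm2, the regulated subunit of ribonucleotide reductase, -1.69, -0.88, -2.74 and -3.22. Tk1, thymidine kinase, had -1.30, -0.86, -2.35 and -3.20. In all of these nucleotide enzymes replicate 2 was nearest to 0 and replicate 4 farthest. Pcna, the sliding clamp of DNA polymerases, was far more even at -1.78, -1.73, -1.86 and -1.95, as was Dut, which clears dUTP, at -1.69, -1.44, -1.67 and -1.85. Pclaf, which binds the clamp, had a mean of -2.63 ± 0.24. Rfc2, a subunit of the clamp loader, was called higher with a mean of 0.37 ± 0.06. The count called lower was 11 without replicate 3 and 12 without replicate 1. Across both lists replicate 2 was nearest to 0 for 12 of 15 called division genes and 16 of 18 called replication genes.

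Genes known for holding cells out of division were on the other side. Txnip, which restrains glucose uptake, had values of 1.53, 1.73, 1.64 and 1.74 (limma adjusted p = 7.12e-05), and the antiproliferative genes Btg2 and Pdcd4 had means of 1.22 ± 0.37 and 1.15 ± 0.19. Of 8 tested quiescence genes 4 were called higher and 0 lower, beside 14.1% and 15.4% of all features. The fourth, Slfn2, which keeps T cells quiescent, had a mean of 0.66 over 3 samples and lost its call without replicate 1 (0.65) or replicate 3 (0.44).

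The 250 bases before the start sites of the lower division genes were searched for letters known from mitotic promoters, since these genes were low together. In RefSeq windows (GRCm38.p6), CCAAT on either strand was found for 7 of the 10 called-lower division genes that matched a window, against 34.5% of 27025 windows. TTTGAA on either strand, the core of the cell cycle homology region, was found for 3 of 10, against 16.3%. For the called-lower replication genes TTTNNCGC on either strand, letters of an E2F-like site, was found for 2 of 16, against 4.39%. A match describes letters and not binding. The windows of Cdk1 and of Cdc20, an activator of the anaphase ubiquitin ligase with a mean ratio of -1.02 ± 0.20 that was chosen after its matches were seen, are shown because both hold CCAAT and TTTGAA, in capitals where either motif or its reverse complement occurs.
Cdk1, chr10:69352913-69353162, minus strand: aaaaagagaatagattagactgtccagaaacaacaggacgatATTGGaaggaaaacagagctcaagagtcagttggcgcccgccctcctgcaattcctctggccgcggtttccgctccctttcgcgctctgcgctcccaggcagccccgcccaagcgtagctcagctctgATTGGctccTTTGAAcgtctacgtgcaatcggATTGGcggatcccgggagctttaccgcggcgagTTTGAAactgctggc
Cdc20, chr4:118437344-118437593, minus strand: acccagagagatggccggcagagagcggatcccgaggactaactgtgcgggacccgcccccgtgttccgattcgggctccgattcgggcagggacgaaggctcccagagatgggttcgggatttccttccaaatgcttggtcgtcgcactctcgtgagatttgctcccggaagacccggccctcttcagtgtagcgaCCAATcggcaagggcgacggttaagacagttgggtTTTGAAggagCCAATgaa

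In Cdk1 the CCAAT matches began at positions -208, -80 and -48 and the TTTGAA matches at -71 and -15 from the start site. In Cdc20 they began at -53 and -8 and at -18. No matches of the 2 motifs overlapped in either window.

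Immediate early genes, which are transcribed within minutes of a stimulus from factors already in the cell, had a median of 1.57. Of 14 tested members 12 were called higher and 0 lower, against 14.1% of all features called higher, and without any 1 replicate 10 or 11 were called higher. Rgs1, which shortens chemokine receptor signals, had values of 2.49, 1.83, 2.97 and 2.52 (limma adjusted p = 0.000309), or 5.48-fold more in blood. Nfkbia, the inhibitor of NF-kappaB, had 1.85, 2.74, 2.35 and 1.74. Dusp2, a phosphatase of MAP kinases, had 1.21, 2.04, 2.28 and 2.53. Fos, a subunit of the AP-1 factor, had 1.14, 1.41, 1.86 and 3.25. Dusp1, a related phosphatase, ranged most, at 1.46, 0.07, 2.94 and 3.91, and its call was lost without replicate 1 (2.31), 3 (1.81) or 4 (1.49). The list median was 1.19, 0.67, 1.77 and 1.90 in replicates 1 to 4. These genes also respond to handling and storage of cells, and the part of sampling in the ratios was not tested.

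Interferon-stimulated genes were called higher in 10 of 14 tested cases and lower in 0, beside 14.1% and 15.4% of all features. Their median was 0.57. Gbp2, a guanylate-binding protein of antimicrobial defence, had values of 2.10, 1.70, 2.38 and 2.33 (limma adjusted p = 0.000169), or 4.37-fold more in blood. Ifi27l2a, an interferon-induced membrane protein, had 1.20, 1.35, 1.27 and 1.39, and Rtp4, a receptor transporter induced by interferon, 0.86, 0.71, 1.69 and 1.15. Gbp3 ranged from -0.21 in replicate 2 to 2.02 in replicate 4 and was not called without replicate 1 (1.02), 3 (1.04) or 4 (0.78). Ifi47, an interferon-inducible GTPase, had a mean of 0.91 ± 0.29. The count called higher was 5 without replicate 3 and 5 without replicate 4. In MHC class I presentation 3 of 6 tested genes were called higher, H2-D1 (0.81 ± 0.39), Psmb10 (0.80 ± 0.24) and Psmb8 (0.43 ± 0.26), the last 2 being catalytic subunits of the immunoproteasome. Psmb8 was not called without replicate 1 (0.44), 3 (0.41) or 4 (0.33).

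**Figure D4:**
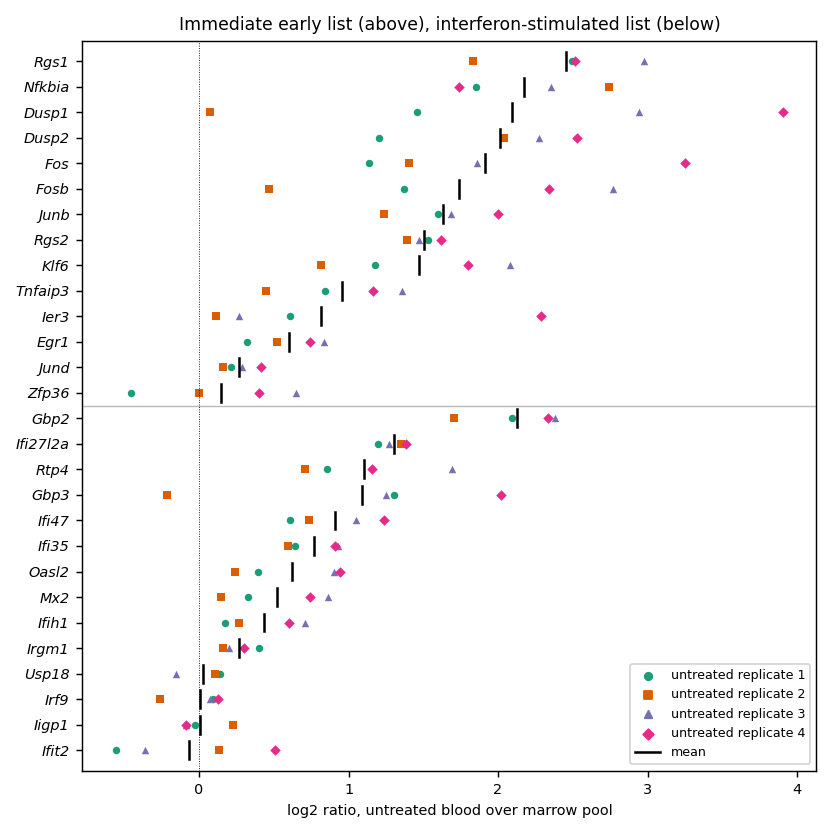
Log2 ratio of untreated blood over the marrow pool for the 14 tested immediate early genes (above the line) and the 14 tested interferon-stimulated genes (below), with 1 symbol per untreated sample and a bar at the mean. Dusp1 spans 0.07 to 3.91 over the 4 samples, and Gbp2 spans 1.70 to 2.38.

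The windows before the start sites of interferon-stimulated genes were searched on either strand for GAAA followed, after any 2 bases, by GAAA again, letters of an interferon-stimulated response element. This pattern was found for 3 of 7 called-higher genes with a window, against 3.04% of all windows. Those of Gbp2 and of Irgm1, an immunity-related GTPase with a mean ratio of 0.27 ± 0.11 that was chosen for its matches, are shown with the matched letters in capitals.
Gbp2, chr3:142620413-142620662, plus strand: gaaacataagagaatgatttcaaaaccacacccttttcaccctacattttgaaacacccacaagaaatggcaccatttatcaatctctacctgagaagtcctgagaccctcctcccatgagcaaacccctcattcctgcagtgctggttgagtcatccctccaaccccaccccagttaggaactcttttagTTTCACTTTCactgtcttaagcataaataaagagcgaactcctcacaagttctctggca
Irgm1, chr11:48871421-48871670, minus strand: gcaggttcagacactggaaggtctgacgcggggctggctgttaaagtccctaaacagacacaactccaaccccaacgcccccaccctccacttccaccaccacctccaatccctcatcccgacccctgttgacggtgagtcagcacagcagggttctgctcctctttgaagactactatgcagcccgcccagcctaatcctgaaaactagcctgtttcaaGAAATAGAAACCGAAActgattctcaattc

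The Gbp2 match began at position -59 on the opposite strand, and the 2 matches of Irgm1 began at -30 and -24 and overlap. For comparison, TGACGTCA, the palindromic cyclic AMP response element, was found for 1 of 10 called-higher immediate early genes, against 1.62% of windows, and AGATAA on either strand, letters of a GATA site, for 1 of 7 called-higher platelet genes, against 10.3%.

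Genes of the energy and protein machinery differed by less. Of 37 tested respiratory chain and ATP synthase genes 16 were called lower and 1 higher, beside 15.4% and 14.1% of all features. Their median was -0.27, and 10 were called lower without replicate 1 or without replicate 3. Cyc1, cytochrome c1 of complex III, had values of -0.99, -1.09, -1.20 and -1.21 (limma adjusted p = 0.000286), and Ndufa5 of complex I had -0.96, -1.02, -0.94 and -1.50. The 1 called higher was Ndufa6, also of complex I, with a mean of 0.55 ± 0.12. With centring on the housekeeping list 7 were called lower and 3 higher, so this list's count depends on the scaling.

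Mitochondrial ribosomal proteins had 10 of 38 tested genes called lower and 1 higher, or 28.9% called against 29.4% of all features, with a median of -0.11 that turned to 0.06 with centring on the housekeeping list. Mrpl18 and Mrpl34, proteins of its large subunit, had means of -1.26 ± 0.18 and -1.06 ± 0.08. Without replicate 3, 6 were called lower. Mrpl38, the 1 called higher, had a mean of 0.30 and was not called without replicate 1 (0.35), 2 (0.31), 3 (0.24) or 4 (0.28).

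Cytosolic ribosomal proteins had 12 of 35 tested genes called higher and 4 lower, beside 14.1% and 15.4% of all features. Centring on the housekeeping list gave 19 higher and 1 lower, and all 15 blood samples in the fit gave 9 and 1. The counts of this list therefore depend on the scaling and on the fit. Rpl12 had values of 0.87, 1.27, 1.10 and 1.21 and Rpl19 1.18, 1.01, 1.00 and 0.76, while Rps27l, a p53-responsive relative of a ribosomal protein, had -0.74, -0.97, -1.08 and -1.19. Without replicate 1 or replicate 3, 7 were called higher, and without replicate 1, 2 or 4 between 1 and 2 were called lower. Rps23, 1 of the 4 called lower, was at the ratio shared by unrelated probes in 4 of the 8 columns. Rpl37a and Rps6, also called lower, both stood at -0.59 in replicate 4, where the shared ratio was -0.59 as well. Many ribosomal protein genes have near-identical processed copies, and signal from these copies cannot be told apart from that of the gene.

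Stem cell, stroma and vessel genes had small ratios apart from a few. Slamf1 (CD150), a receptor of stem cells, platelets and activated lymphocytes, had values of 1.56, 1.50, 2.66 and 2.50 (limma adjusted p = 0.00131). Meis1, a transcription factor of stem cells and megakaryocytes, had values of -0.64, -0.50, -0.98 and -1.07. The other 8 of 10 tested stem and progenitor genes were not called, so 20% of this list was called, beside 29.4% of all features. Kit had 1 value. Among 11 tested marrow stroma and bone genes 5 were called lower and 0 higher, beside 15.4% and 14.1% of all features. Centring on the housekeeping list gave 2 lower and 1 higher, so these counts depend on the scaling. Dcn, the matrix protein decorin, had values of -0.69, -0.40, -0.70 and -1.25, and Adipoq, the adipocyte hormone adiponectin, a mean of -0.63 ± 0.32 that was not called without replicate 1 (-0.63) or replicate 3 (-0.60). Without replicate 3, 2 stroma genes were called lower, and 3 without replicate 1 or without replicate 4. The stroma markers Cxcl12 (-1.11 ± 1.45) and Col1a1 (0.11 ± 0.23), each with 3 values, were not called. The endothelial genes divided, with Eng higher (0.65 ± 0.13) and Plvap lower (-0.46 ± 0.12).

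Lists of dendritic cells, plasma cells, granulocytes other than neutrophils, the proteasome, ribosome biogenesis and endoplasmic reticulum chaperones had medians between -0.14 and -0.02, all of which turned positive with centring on the housekeeping list. Of 8 tested dendritic cell genes 1 was called higher and 2 lower, or 1 and 1 whichever replicate was left out. Batf3, a transcription factor of cross-presenting dendritic cells, had values of 0.56, 0.41, 1.08 and 1.06, and Flt3, a growth factor receptor of their progenitors, -0.39, -0.46, -0.76 and -0.49. Of 9 tested genes of eosinophils, basophils and mast cells 3 were called higher and 1 lower, and leaving out any replicate left 0 called higher and 1 lower. That 1 was Il5ra, the eosinophil receptor for interleukin 5, with a mean of -0.46 ± 0.21 that was not called with centring on the housekeeping list (-0.29). Of 16 tested proteasome subunits 4 were called lower and 2 higher, with 2 lower and 1 higher without replicate 1, 3 or 4. Psmd9 and Psmd6, which belong to or assemble the regulatory particle, had means of -0.88 ± 0.30 and -0.81 ± 0.11, while both called higher were the immunoproteasome subunits given above. In ribosome biogenesis 2 of 14 tested genes were called higher and 2 lower, a share like the 14.1% and 15.4% of all features, with Nop58, a core protein of small nucleolar particles, at -0.86 ± 0.43. Myc, which drives that programme, had a mean of -0.58 and was not called without replicate 3 (-0.44) or replicate 4 (-0.54).

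The same ratios in treated blood are given as values only, because all groups share the marrow pool and no difference between them was tested here. Clu was at 3.31 ± 0.31 in untreated blood, 5.02 ± 0.46 at day 1, 4.07 ± 0.84 at day 2 and 4.85 ± 0.76 at day 5 (SD, n = 4, 4, 4 and 3). Cd177 was at -2.44 ± 0.19 in untreated blood, -3.69 ± 0.22 at day 1, -3.06 ± 0.57 at day 2 and -2.46 ± 0.21 at day 5. Ltf varied little between groups, at -3.40 ± 0.15, -3.66 ± 0.14, -3.61 ± 0.65 and -3.37 ± 0.09 in the same order. Cdk1 was at -3.47 ± 0.81, -4.03 ± 0.17, -2.70 ± 1.20 and -3.26 ± 0.44, with its highest single treated value, -1.21, at day 2.

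Other genes stood elsewhere in treated blood. Csf3r was at 0.45 ± 0.27 in untreated blood, 0.84 ± 0.27 at day 1, 2.02 ± 0.49 at day 2 and -0.22 ± 0.16 at day 5. S100a9 was at -2.34 ± 0.81 in untreated blood, -2.33 ± 0.16 at day 1, -0.62 ± 0.27 at day 2 and -2.84 ± 0.96 at day 5. Alas2 was at 0.10 ± 0.58 in untreated blood, -1.30 ± 0.46 at day 1, -2.73 ± 0.94 at day 2 and 0.84 ± 0.48 at day 5. Gbp2 was at 2.13 ± 0.31 in untreated blood, 2.69 ± 0.34 at day 1, 3.35 ± 0.26 at day 2 and 1.42 ± 0.46 at day 5.

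**Figure D5:**
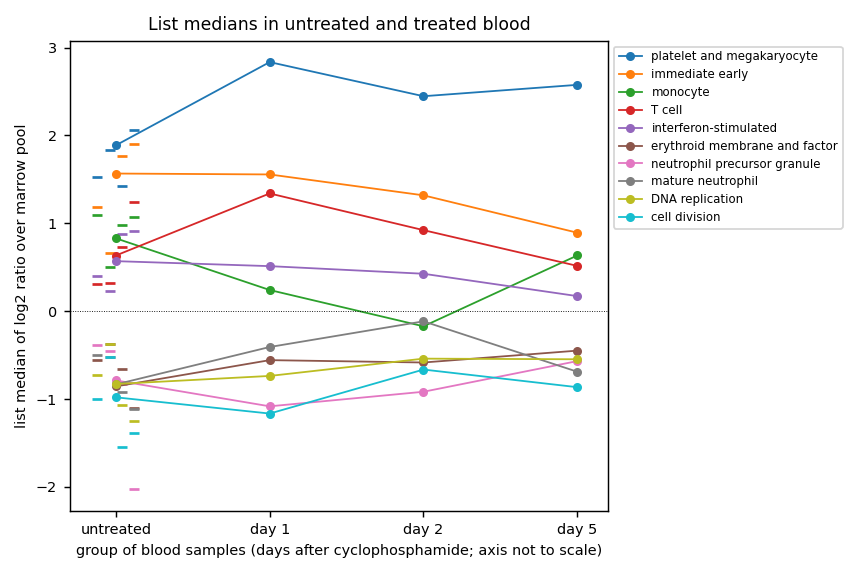
Median log2 ratio over the marrow pool of the tested members of 10 gene lists in untreated blood and in blood at day 1, day 2 and day 5 after cyclophosphamide (points joined by lines), with short dashes for the list median in each of the 4 untreated samples. The platelet list median is 1.89 in untreated blood and 2.83 at day 1, and the cell division median is -0.98 in untreated blood and -0.66 at day 2.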

How the data were processed

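The deposited values are ratios of Cy5 over Cy3 for 13443 probes in 30 columns, per the labels' dyes, and for the authors' scanner, background correction, normalization and filter the sources used here give nothing. The log base is not given either. The deposited values were taken as log2 because untreated values between -4.59 and 3.95 make log10 unlikely on a 16-bit scanner (limit 4.82); with natural logarithms every value would grow by a factor of 1.44. Per the labels' protocols, total RNA was amplified and 12 µg of amplified RNA was labelled.

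Technical replicates were averaged and the 4 untreated samples kept. Probes were named through the platform annotation (10032 with 1 symbol, 170 with several, 3241 with none; the last 2 kinds are not named). No genome build is given for probes, so no probe coordinates are printed. A mean was fitted per feature with limma 3.58.1 (R 4.3.3) and tested with eBayes, with treat for changes beyond 2-fold, and Benjamini-Hochberg adjustment. The procedure was tested on simulated noise with known shifts. That simulation held no dye offset and no spread between marrow pools, so it does not bear on those limits. The number of arrays limits precision.

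Named genes are, among those called with 1 sign in all 4 samples, the 15 highest and 15 lowest means, the 5 called members of each list with the largest means in size, called members opposite in sign to their list median, and tested cell type markers. The comparison, the 33 lists and the markers were chosen with earlier results of these data known, and list counts carry no test. Promoter windows and motifs were chosen after seeing the data. The promoter sequences are RefSeq's (GRCm38.p6, first listed window of each gene).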

Additional observations from a re-analysis of the deposited data

Results flagged for a closer look

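A sample stood apart from the other 3 in its group, by a gap larger than Dixon's critical value for 4 samples, for 5 of 146 named genes with 4 values. These were Btnl10 in replicate 3 (-4.02), Pclaf in replicate 2 (-2.28), Esco2 in replicate 2 (-1.66), Sec61a1, a subunit of the protein translocation channel, in replicate 1 (-0.68), and Ndufa5 in replicate 4 (-1.50). The same held for the medians of 3 of 33 gene lists, namely heme synthesis and iron in replicate 4 (-1.26), endoplasmic reticulum chaperones in replicate 2 (0.089) and housekeeping genes in replicate 3 (-0.30). Chance alone gives such a gap in about 1 of 20 groups.

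For 11 named genes with at least 3 values in both groups every untreated sample lay on one side of the marrow level and every sample of a treated group on the other, and none of these differences was tested. Genes higher in untreated blood but below 0 in a treated group were Lyz2 at day 1 (mean -0.34), Ms4a6c (-0.33), Adgre1 (-0.18), Il4 (-0.26), Cd200r3 (-0.38) and Mrpl38 (-0.47) at day 2, and Fcmr (-0.48), Csf3r (-0.22), Psmb8 (-0.25) and Rtp4 (-0.43) at day 5. Plvap, a diaphragm protein of vessel walls, was lower in untreated blood and above 0 at day 1 (0.42).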

How the results depend on the processing

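No paired analysis was possible because a single group is set against 0. Of 152 called named genes, 110 kept their call in each of the 17 alternatives, 42 lost it in at least 1 and 0 turned direction. No called feature became an opposite call under any of the alternatives that keep the features as averaged. Leaving out 1 replicate gave 1170 to 1669 called features, with 525 to 753 higher and 645 to 916 lower, and 39 to 71 beyond 2-fold, against 2198, 1050, 1148 and 70 with all samples; fewer samples were tested there. Centring on the housekeeping list, which raises each sample by 0.13 to 0.30 and the means by 0.18 on average (6 genes, 1 of them, Ppia, at the shared ratio), gave 2837 calls, 2187 higher (77.1%, against 47.8%) and 650 lower, and turned 8 of 33 list medians positive (0.014 to 0.15), among them the stem and progenitor list (0.14) and the mitochondrial ribosomal list (0.063). Outside that centring 7 list medians changed side in at least 1 alternative, the stem and progenitor list with technical replicate 2 alone (0.011); each list that turned had a median of at most 0.14 in size. A robust trended prior called 20 features beyond 2-fold. The causes were not tested. Dropping the 20 probes at the shared ratio, an alternative chosen after seeing the data, gave 2186 calls. Of 155 genes with several tested probes, Actg1 and Mcm10 had probes called in opposite directions. Signal over background was not available, so what dim probes limit is unknown.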

Other observations

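Members of 4 gene families (Gimap, Ms4a, C-type lectin and histone) were looked at after values of some members had been seen. Of 3 Gimap genes on the array, Gimap3 and Gimap4, both called higher, were the 2 with values. In the Ms4a family of CD20-like membrane proteins, 11 members had values in all 4 samples. Of these, 7 were called higher and 0 lower, beside 14.1% and 15.4% of all features. Ms4a8a had a mean of 0.79 ± 0.32, Ms4a4d 0.98 ± 0.39 and Ms4a6d 0.65 ± 0.38 (SD, n = 4 each), while Ms4a7 (-0.24 ± 0.32) and Ms4a10 (-0.29 ± 0.30) were not called.

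Of 16 C-type lectin genes on the array, Clec4d had 0 values and Clec11a had 1, and neither was tested. Among the tested ones 5 were called higher and 1 lower, beside 14.1% and 15.4% of all features. Clec7a, the receptor for fungal beta-glucan, had values of 1.98, 1.38, 2.19 and 1.90 in untreated replicates 1 to 4, and Clec4n (Dectin-2) 0.78, 0.76, 1.23 and 0.57. Clec4a2, an inhibitory receptor of dendritic cells and other myeloid cells, had -0.86, -0.62, -1.43 and -1.41. The first 2 were called higher and the last was the 1 called lower.

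Of 23 histone genes on the array 11 had values in all 4 samples, and the rest were not tested. Of these 11, 3 were called higher and 2 lower, beside 14.1% and 15.4% of all features. Beside H2bc4 and H1f2, H2ap was called higher with a mean of 0.55 ± 0.12. H2az1, a variant histone, was called lower with a mean of -0.62 ± 0.16, H2ax had values of -0.39, -0.15, -0.43 and -2.45, and H3f3a had a mean of -0.02 ± 0.14.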
